A study of Mus musculus with 13 samples.

Results

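Fast-twitch skeletal muscle genes were measured in bulk RNA-Seq libraries of mouse parametrial white adipose tissue (pmWAT), the fat beside the uterus. The group holds 10 genes listed by symbol and chosen with earlier results of these data known: *Acta1*, *Myh1*, *Myh2*, *Myh4*, *Ckm*, *Tnnt3*, *Mylpf*, *Tnni2*, *Actn3* and *Pvalb*. Each matched 1 Ensembl identifier among the 33618 in the count table, and all 10 passed the filter on low counts that left 16753 genes for testing. The question asked of them was how much of this RNA each fat library held, which libraries stood out, and whether the amount differed between the genotypes.

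The libraries came from 7 mice labelled *Lmna* fl/fl and 6 labelled *Lmna* iADKO, one library per female mouse. Both genotypes carried *Lmna* alleles with loxP sites around exons 10 and 11, and the iADKO mice carried in addition a heterozygous *Adipoq*-CreERT2 transgene, a tamoxifen-dependent recombinase under the adiponectin promoter, so that recombination is directed to adipocytes and not to muscle fibers. All mice, controls included, had received tamoxifen at 50 mg/kg on 5 days at 12 to 14 weeks of age, and the fat was taken 2 weeks later. RNA was extracted from powdered frozen whole tissue, so any other tissue in a dissected piece was extracted with the fat. The controls carried no Cre.

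Skeletal muscle contracts when myosin heavy chains, the motors of the thick filament, pull on thin filaments of actin, and calcium frees the thin filament through the troponin complex. Fast-twitch fibers make their own forms of these proteins: *Myh2* encodes the myosin of type IIa fibers, *Myh1* that of type IIx and *Myh4* that of type IIb, the fastest and most glycolytic fiber of rodents. White fat cells do not assemble sarcomeres, and in a fat sample these transcripts are read as a sign of muscle RNA or of low-level expression by other cells. In bulk tissue, fewer cells of a type and less RNA per cell cannot be told apart.

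The 3 myosin genes lie side by side on the plus strand of chromosome 11 in GRCm39, *Myh2* at chr11:67061838-67088989, *Myh1* at chr11:67089132-67116631 and *Myh4* at chr11:67128336-67151274. Their coding sequences are near copies of one another, with 90.95% identity between *Myh1* and *Myh2*, 90.1% between *Myh1* and *Myh4* and 88.19% between *Myh2* and *Myh4*. Of all 100-base stretches, the length of 1 read, in the reference transcript, 7.82% of *Myh1*, 8.20% of *Myh2* and 3.89% of *Myh4* also occurred in a transcript of another gene, in each case another myosin heavy chain. For the other 7 members the share was 0. To show what separates the 3 myosins, the 60-base stretch in which they differ most within 1 exon follows, with the 24 positions that are not the same in all 3 genes in capitals (GENCODE vM39 transcripts, coding strand).
*Myh2*, chr11:67082174-67082233, exon 28: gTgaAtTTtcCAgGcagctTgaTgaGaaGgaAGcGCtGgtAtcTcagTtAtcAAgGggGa
*Myh1*, chr11:67108290-67108349, exon 28: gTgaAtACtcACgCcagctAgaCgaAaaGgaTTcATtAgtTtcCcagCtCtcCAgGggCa
*Myh4*, chr11:67145284-67145343, exon 27: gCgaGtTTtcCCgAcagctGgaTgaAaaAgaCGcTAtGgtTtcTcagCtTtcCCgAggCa

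The 250 bases before the gene start were searched for sequence motifs, which describes the genes and not the differences between libraries. RefSeq promoter sequences (GRCm38.p6, a different build from the gene coordinates) were found for 7 of the 10 members, in 8 windows, since *Pvalb* had more than 1. A member counts when any of its windows holds a match, whereas the share over all promoters is per window. In *Pvalb* only 1 window held the MEF2 site named below. Of these 7, the E-box CAGCTG, a sequence that MyoD-family factors can bind, was present in *Acta1*, *Ckm*, *Myh4* and *Mylpf*, against 13% of all 32851 promoter windows. A MEF2 site was present in *Myh1*, *Myh4* and *Pvalb*, against 2.92% of windows, a CArG box, the element of serum response factor, in *Acta1* and *Myh4*, against 1.47%, and TATAAA in *Acta1*, *Myh1* and *Myh4*, against 12.4%. Both strands were searched, and in *Myh1* and *Myh4* 1 TATAAA match on the opposite strand lies inside the MEF2 site. Of the promoters, 3 are shown, those of the actin, of the creatine kinase and of the myosin that varied most on a log2 scale, with matches in capitals. A match describes the letters in the window and not binding.
*Acta1*, chr8:123894776-123895025, minus strand: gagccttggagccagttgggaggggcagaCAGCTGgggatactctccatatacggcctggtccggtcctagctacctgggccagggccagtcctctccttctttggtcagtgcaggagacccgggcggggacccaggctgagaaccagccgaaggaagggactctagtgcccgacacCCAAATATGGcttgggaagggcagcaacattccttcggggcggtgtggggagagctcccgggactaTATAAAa
*Ckm*, chr7:19410844-19411093, plus strand: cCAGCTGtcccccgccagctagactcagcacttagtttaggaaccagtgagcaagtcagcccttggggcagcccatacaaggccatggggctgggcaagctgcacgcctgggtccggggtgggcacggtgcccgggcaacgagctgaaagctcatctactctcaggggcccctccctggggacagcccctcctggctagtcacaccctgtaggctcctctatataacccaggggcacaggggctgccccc
*Myh4*, chr11:67237562-67237811, plus strand: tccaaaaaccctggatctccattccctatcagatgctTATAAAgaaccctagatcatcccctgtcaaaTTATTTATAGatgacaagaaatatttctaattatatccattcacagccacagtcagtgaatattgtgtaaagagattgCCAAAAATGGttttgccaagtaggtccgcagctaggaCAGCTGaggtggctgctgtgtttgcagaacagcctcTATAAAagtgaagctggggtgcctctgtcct

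Between 18854223 and 19776491 reads per library were counted on genes. Levels are given as CPM, reads scaled to a common library size with TMM factors. In the libraries labelled iADKO, *Lmna* itself was not reduced: the fl/fl mean was 84.6 ± 7.50 CPM (SD, n = 7) and the iADKO mean 96.6 ± 11.5 CPM (SD, n = 6; log2 fold change 0.19, SE 0.08, adjusted p = 0.0785). The count of the whole gene also takes in the exons that are kept and the cells that have no Cre, so it does not measure the deleted exons. The 7 adipocyte markers listed, *Adipoq* and *Plin1* among them, together gave 16147 to 24857 CPM per fl/fl library and 10286 to 17722 CPM per iADKO library. *Pax7*, *Myod1*, *Myog* and *Myf5*, markers of muscle precursors, had 0 to 3 reads in every library. Their list of 8 genes also holds *Myf6* and developmental myosins. It summed to 31 reads in fl/fl 1, 29 in fl/fl 5, 27 in iADKO 3 and 18 in iADKO 5. Elsewhere the sum was at most 14 reads, in iADKO 4.

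*Acta1*, skeletal alpha-actin of the thin filament, had the highest level of the members per length, a mean of 12.1 RPKM (CPM per kb of transcript) over all 13 libraries with merged exons and 27.3 with the reference transcript. Its lowest, median and highest level was 11.9, 39.4 and 131 CPM in fl/fl and 8.43, 13.6 and 77.7 CPM in iADKO. The libraries fl/fl 1 and fl/fl 5, at 131 and 124 CPM, stood above all others, followed by iADKO 5 at 77.7, iADKO 3 at 54.3 and fl/fl 4 at 53.3. *Acta1* was never near 0, and its smallest count was 176 reads, in iADKO 4.

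The troponins, which make the thin filament respond to calcium, followed the same libraries. *Tnnt3*, the fast troponin T that anchors the complex to tropomyosin, was at 1.61, 4.96 and 42.4 CPM (lowest, median and highest) in fl/fl and at 1.30, 1.68 and 24.1 CPM in iADKO. *Tnni2*, the inhibitory subunit, was at 0.430, 1.39 and 12.7 CPM in fl/fl and at 0.652, 1.05 and 8.49 CPM in iADKO. In both genes the highest library was fl/fl 5, then fl/fl 1, iADKO 5 and iADKO 3. In both, fl/fl 1 and fl/fl 5 lay above every iADKO library, and the other 5 fl/fl libraries lay within or near the iADKO range. *Tnnt3* and *Tnni2* lie near each other on chromosome 7, at chr7:142048605-142070280 and chr7:141995545-141998147. *Actn3*, the alpha-actinin of the Z-disc in fast fibers, had the narrowest spread of the members, with 2.15, 4.27 and 24.3 CPM in fl/fl and 1.86, 2.34 and 11.9 CPM in iADKO. Its exons share 1355 bases with *Ctsf*, a cathepsin gene on the opposite strand that had 1030 to 1357 reads per library. The kit keeps strand, but how strand was set in counting is not given in the sources used here, and whether *Ctsf* reads entered the 38 to 481 reads of *Actn3* was not tested.

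On a log2 scale, *Myh4* varied most of the members. It was at 0, 7.45 and 121 CPM in fl/fl and at 0, 0.0968 and 53.3 CPM in iADKO, and its counts were 1063, 21, 134, 139, 2401, 90 and 0 reads in fl/fl 1 to 7 and 3, 0, 457, 1, 1118 and 0 reads in iADKO 1 to 6. In 4 of the 6 iADKO libraries *Myh4* thus had at most 3 reads, as did 1 of the 7 fl/fl libraries. A count of 0 allows up to 3 reads, or 0.161 CPM in fl/fl 7, 0.140 in iADKO 2 and 0.147 in iADKO 6. *Myh1* was at 0.646, 2.71 and 27.1 CPM in fl/fl and at 0.419, 1.41 and 16.0 CPM in iADKO. *Myh2* was at 1.59, 1.90 and 28.5 CPM in fl/fl and at 0.280, 1.72 and 24.9 CPM in iADKO. Of the 6 iADKO values of *Myh2*, that of iADKO 3 stood apart, with the next at 9.06 CPM in iADKO 5. *Mylpf*, the fast regulatory light chain that sits on these heavy chains, was at 0.712, 3.00 and 15.9 CPM in fl/fl and at 0.419, 0.902 and 10.4 CPM in iADKO. Its exons share 300 bases with *Septin1*, at 186 to 375 reads per library, and 58 with *Tbc1d10b*, at 992 to 1492 reads, both on the opposite strand, and whether their reads entered the 9 to 314 reads of *Mylpf* was not tested.

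In the soluble proteins of fast fibers, the 4 highest libraries were in the order of the troponins. *Ckm*, the muscle creatine kinase that restores ATP from phosphocreatine, was at 0.215, 4.18 and 49.8 CPM in fl/fl and at 0.0932, 2.59 and 30.8 CPM in iADKO. In iADKO 6 *Ckm* had 82 reads although *Myh4* and *Pvalb* had 0 there. *Pvalb*, the calcium buffer parvalbumin of fast fibers, was at 0, 1.15 and 12.4 CPM in fl/fl and at 0, 0.121 and 6.96 CPM in iADKO. Per length, *Pvalb* was the rarest member, at a mean of 0.732 RPKM with merged exons and 0.869 with the reference transcript.

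**Figure D1:**
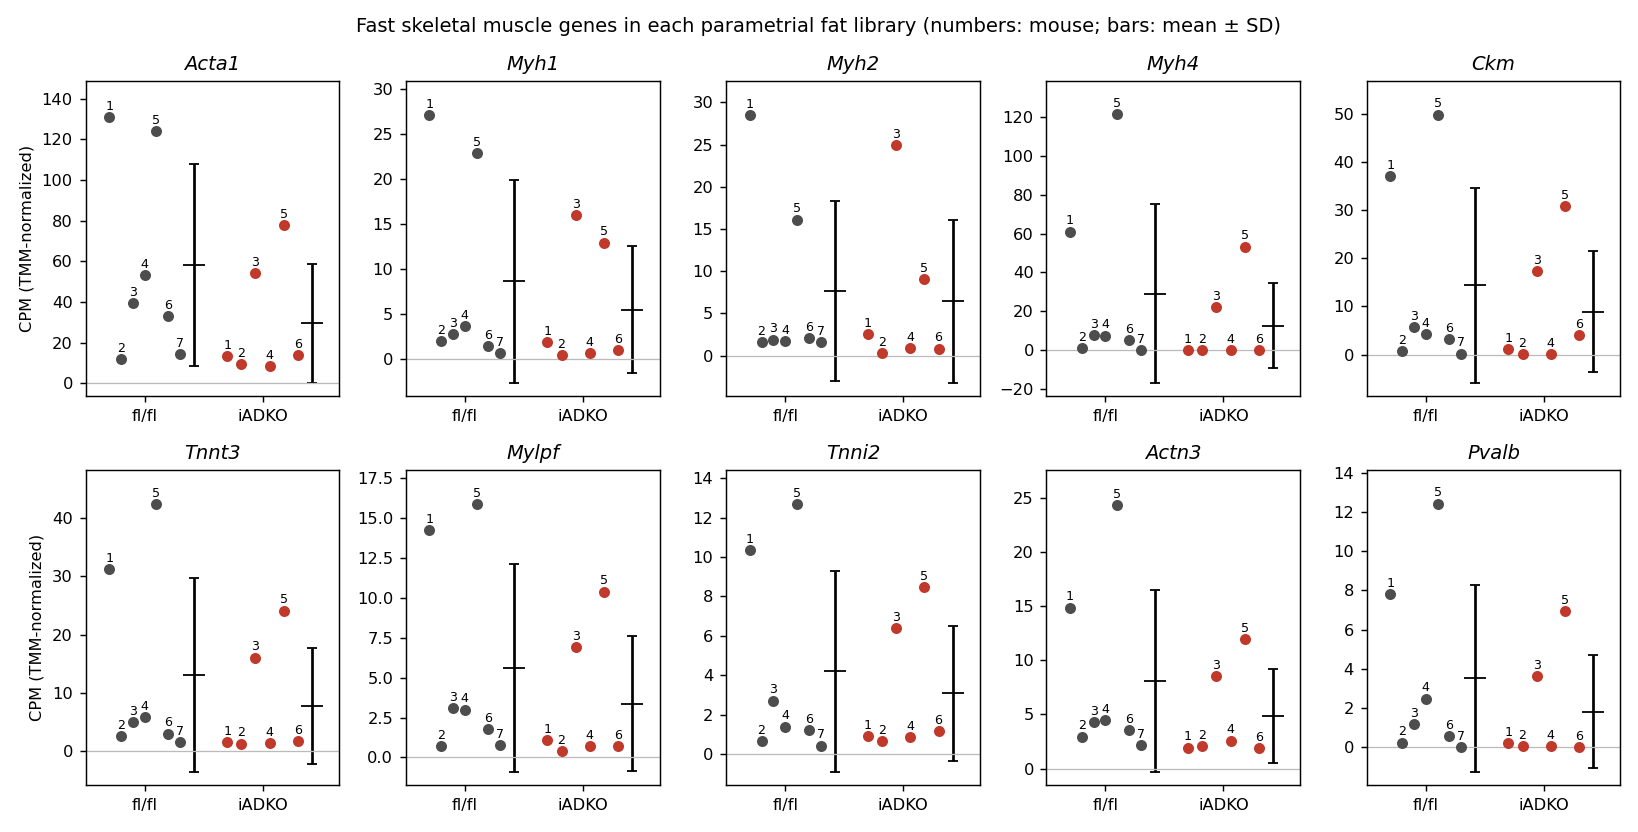
Level of each of the 10 fast skeletal muscle genes in CPM (y axis, TMM-normalized, linear) in the 7 fl/fl libraries (grey) and the 6 iADKO libraries (red), with the mouse number beside each point and the mean ± SD as a bar; bars can reach below 0 because the SD exceeds the mean. In each panel fl/fl 1, fl/fl 5, iADKO 3 and iADKO 5 are the 4 highest points, and in *Acta1* fl/fl 4 lies 1.02 times below the lowest of them.

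All 10 members had the same 4 highest libraries, fl/fl 1, fl/fl 5, iADKO 3 and iADKO 5. The fourth highest level exceeded the fifth by 1.02 times in *Acta1*, 1.46 times in *Pvalb*, 1.90 times in *Actn3* and 2.22 to 3.60 times in the other 7 members. Summed over the 10 genes, fl/fl 5 held 442 CPM and fl/fl 1 363 CPM, against 22.0 to 87.5 CPM in the other 5 fl/fl libraries. iADKO 5 held 246 CPM and iADKO 3 176 CPM, against 14.9 to 25.2 CPM in the other 4 iADKO libraries. These genes were a small part of every library: from 0.0450% of the reads (95% Wilson interval 0.0440 to 0.0459, counting error only) in fl/fl 5 to 0.00164% (0.00147 to 0.00183) in iADKO 2. Of the 16753 genes tested, 54 had the same 4 highest libraries, and these were the 10 members, 26 further genes of the skeletal muscle lists and 18 others.

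The members were among the genes that varied most between mice of a genotype. The pooled SD of log2 CPM within genotypes was 1.22 for *Actn3*, 1.35 for *Acta1*, 2.55 for *Pvalb*, 2.86 for *Ckm* and 3.76 for *Myh4*. The median over all genes tested was 0.20, and 167 genes, 0.997% of those tested, varied more than *Actn3*.

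None of the 10 members passed the test between genotypes (edgeR quasi-likelihood, adjusted p under 0.05 over all genes tested), whereas 30.5% of all genes tested did. None had an unadjusted p under 0.05 either, and none had genotypes that did not overlap, against 6.67% of all genes tested. The mean level of each of the 10 was lower in iADKO, and the median log2 fold change was -0.74, against 0.03 over all genes tested. This median rested on single libraries: it was -0.13 without fl/fl 5, -0.36 without fl/fl 1, -1.18 without iADKO 3 and -1.53 without iADKO 5, and leaving out 1 library turned the direction of *Myh2*, *Ckm* and *Tnni2*. For *Acta1* the log2 fold change was -0.98 (SE 0.71, 95% interval -2.52 to 0.57, adjusted p = 0.314), from a fl/fl mean of 58.2 ± 49.5 CPM (SD, n = 7) and an iADKO mean of 29.6 ± 29.3 CPM (SD, n = 6). For *Myh4* it was -1.21 (SE 1.49, interval -4.44 to 2.02, adjusted p = 0.561), and for *Myh2*, the nearest to 0, -0.25 (SE 1.06, interval -2.54 to 2.04, adjusted p = 0.875). The other 7 members lay between -0.45 for *Tnni2* and -0.96 for *Pvalb*, with adjusted p of 0.430 for *Actn3* to 0.729 for *Tnni2*. Exact two-sided permutation tests of the mean log2 CPM gave p of 0.191 for *Acta1*, 0.202 for *Myh4* and 0.803 for *Tnni2*. The intervals were wide, so that differences of several fold in either direction were not detectable for most members with this spread between mice.

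**Figure D2:**
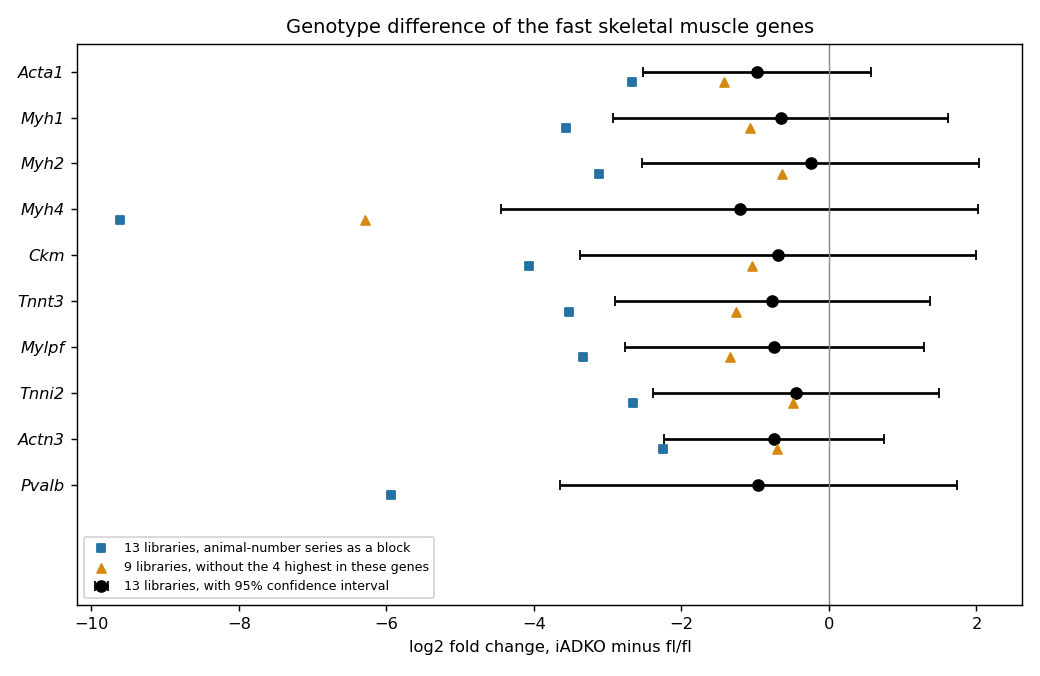
Log2 fold change of each member, iADKO minus fl/fl (x axis), with all 13 libraries and the 95% confidence interval (black), with the animal-number series as a block (blue squares) and without the 4 libraries highest in these genes (orange triangles; *Pvalb* was not tested there). The black intervals all include 0, and the squares and triangles lie below 0.

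The animal numbers in the library names fall into 4 runs, and the genotypes are uneven over them. The runs were drawn from gaps in the numbers. The number of iADKO 1 lies above those of the other mice of its run, so that placing it there was a choice. The results by run rest on this choice, and another placing was not tested. One run holds only fl/fl 6 and 7, and one holds only iADKO 3 and iADKO 5, the 2 iADKO libraries highest in these genes, so that there the run and the genotype cannot be told apart. In the run with fl/fl 4 and 5 and iADKO 4 and 6, all 10 members were lower in iADKO, with a median difference of -3.18 in mean log2 CPM. In the run with fl/fl 1, 2 and 3 and iADKO 1 and 2, all 10 were lower as well, with a median of -2.23. Each of these runs holds 1 of the 2 highest fl/fl libraries and neither of the highest iADKO libraries. All 10 members share their 4 highest libraries, so that 10 of 10 lower within a run is not 10 separate results. The share of all genes lower within a run is not given here. With the run as a block in the edgeR fit, 7 members, *Acta1*, *Myh1*, *Myh4*, *Tnnt3*, *Mylpf*, *Actn3* and *Pvalb*, were lower in iADKO at adjusted p of 0.0244 to 0.0392. In that fit 11.9% of all genes passed in either direction, and 1202 of the 16753 tested were lower. Without the 4 highest libraries, which were set aside for these same genes' values after they were seen, 3 of the 9 members tested were lower in iADKO. These were *Myh4* (edgeR adjusted p = 0.0211), *Tnnt3* (0.0288) and *Actn3* (0.0482). There 22.6% of all genes were called in either direction, and 2012 of the 16796 tested were lower.

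The makeup of the fast myosins differed among the 4 highest libraries. In reads per kb of merged exon, *Myh4* was 80.5% of the 3 myosins in fl/fl 5, 76.3% in iADKO 5, 59.2% in fl/fl 1 and 41.4% in iADKO 3, and *Myh2* was 8.23%, 9.97%, 21.3% and 36.2%. The myosin reads numbered 3173, 1579, 2032 and 1309. As a share of reads, *Myh4* was at 75.7% (95% Wilson interval 74.1 to 77.1), 70.8% (68.5 to 73.0), 52.3% (50.1 to 54.5) and 34.9% (32.4 to 37.5), so that these 4 shares differed beyond counting error. The ratio of *Myh4* to *Myh2* reads was 0.881 in iADKO 3, against 2.14 in fl/fl 1, 5.88 in iADKO 5 and 7.53 in fl/fl 5. The other 9 libraries held 15 to 238 myosin reads. Among these, fl/fl 3, 4 and 6 had 58.4% to 62.6% of their reads on *Myh4*, fl/fl 2 had 24.4%, and fl/fl 7 and iADKO 1, 2, 4 and 6 had 0% to 3.19%, with upper limits of 8.38% to 20.4%.

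**Figure D3:**
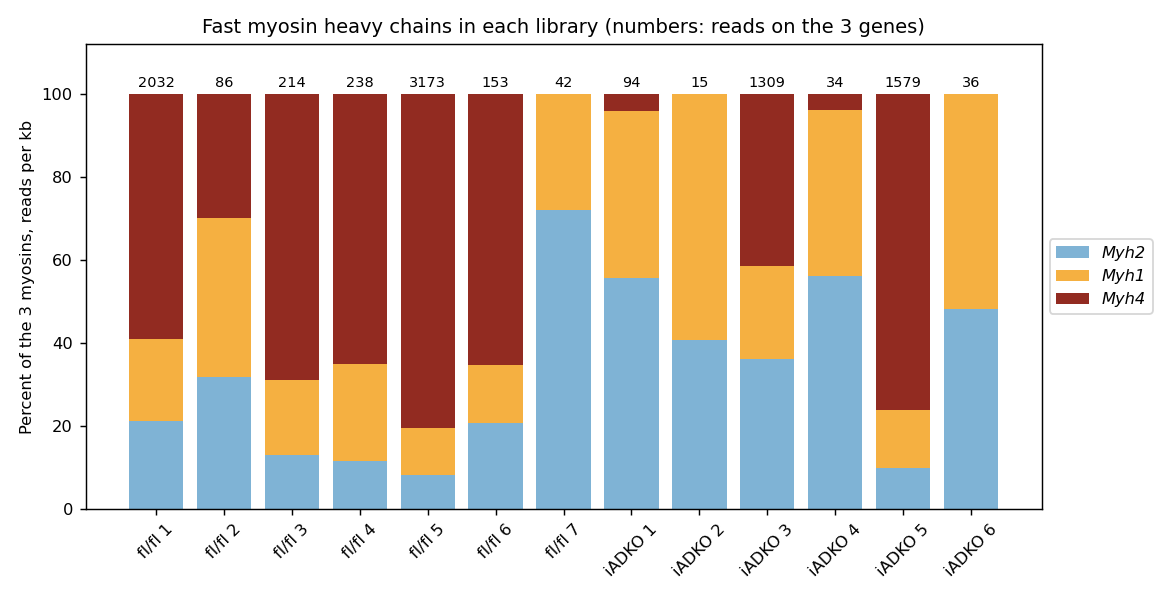
Share of *Myh2* (blue), *Myh1* (orange) and *Myh4* (dark red) among the 3 fast myosins in each library (y axis, percent of reads per kb of merged exon), with the number of reads on the 3 genes above each bar. *Myh4* makes up most of the bar in fl/fl 5 and iADKO 5 and less than *Myh1* and *Myh2* together in iADKO 3, and bars over 15 to 94 reads are imprecise.

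Ratios among the other members varied less across the 4 highest libraries. *Pvalb* had 0.211, 0.250, 0.209 and 0.226 reads for each *Ckm* read in fl/fl 1, fl/fl 5, iADKO 3 and iADKO 5, and *Ckm* had 0.282, 0.401, 0.317 and 0.397 reads for each *Acta1* read. In the other libraries the ratio of *Ckm* to *Acta1* was lower, with 12 *Ckm* reads beside 217 *Acta1* reads in fl/fl 2 and 2 beside 206 in iADKO 2, apart from iADKO 6 with 82 beside 284. *Acta1* thus had at least 176 reads also in libraries where *Ckm*, *Myh4* and *Pvalb* were near 0.

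The genes most like the members across the 13 libraries were other muscle genes. Likeness was the lower of Pearson's and Spearman's correlation with the mean scaled log2 CPM of the members, given as a description because the 13 points fall into 4 high and 9 lower libraries and share their libraries' scaling. The 12 highest of 16743 genes were *Tnnc2*, fast troponin C (0.97), *Atp2a1*, the calcium pump of fast fibers (0.97), *Xirp2* (0.97), *Pgam2*, the muscle phosphoglycerate mutase (0.97), *Myh7*, the slow myosin heavy chain (0.96), *Ttn*, titin (0.95), *Myom2* of the M-band (0.95), *Mylk2*, the skeletal myosin light chain kinase (0.94), *Myoz1* (0.93), *Mybpc1* (0.93), *Eno3*, the muscle enolase (0.93), and *Mybpc2* (0.92). The median over all genes was -0.04 and the 99th percentile 0.55. Of 17 genes at 0.9 or above, 13 stood on the muscle lists, and none of the 17 was called between genotypes.

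*Atp2a1* was at 118 CPM in fl/fl 5, 84.9 in fl/fl 1, 48.5 in iADKO 5 and 45.4 in iADKO 3, against at most 11.7 CPM, in fl/fl 4, in the others. *Ttn* was at 48.0, 35.5, 22.5 and 25.7 CPM in the same 4 libraries and at most 4.85 CPM in the rest. Both followed the members in which libraries were high, and so did a slow-fiber gene. *Myh7*, a marker of slow fibers, was at 10.7, 3.16, 3.96 and 2.79 CPM in these, and at most 1.82 CPM, in fl/fl 4, in the rest. Among the 5 tested slow-muscle genes the median likeness was 0.69. *Myh7* had the highest of them and *Casq2* the lowest, at 0.14.

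Across the 4 other skeletal muscle lists, with 15, 11, 9 and 5 genes tested, 7 genes passed the test, all lower in iADKO. Of all genes tested, 16.3% were lower. With the animal-number run as a block, 14 genes of these lists passed, all lower, where 1202 of all 16753 genes tested were lower. Of the 7, *Myl3*, *Pfkm* and *Myl1* had a likeness to the members above the 99th percentile of all genes, and *Phkg1*, *Cox7a1*, *Cox8b* and *Gpd1* did not. Among 15 tested genes of the sarcomere, 1 was lower in iADKO and none higher, with a median likeness of 0.92. The one that fell was *Myl1*, a fast myosin light chain (log2 fold change -0.72, adjusted p = 0.00368), whose mean was 39.7 ± 7.94 CPM (SD, n = 7) for fl/fl and 24.2 ± 5.36 CPM (SD, n = 6) for iADKO, with a likeness of 0.57. None of the 11 tested genes of excitation and calcium handling passed, with a median likeness of 0.76.

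Among 9 tested genes of muscle energy metabolism, 5 were lower in iADKO and none higher. These were *Gpd1*, a glycerol-3-phosphate dehydrogenase that fat also uses (-0.77, adjusted p = 0.00605), *Phkg1* of phosphorylase kinase (-1.03, 0.000382), *Pfkm*, a phosphofructokinase (-0.43, 0.00657), and the cytochrome oxidase subunits *Cox8b* (-0.94, 0.00401) and *Cox7a1* (-1.11, 0.0247). Their likeness to the members was 0.0022 for *Gpd1*, 0.07 for *Cox8b*, 0.20 for *Phkg1*, 0.20 for *Cox7a1* and 0.60 for *Pfkm*, while *Mb*, myoglobin, at 0.92 and *Pygm*, the muscle glycogen phosphorylase, at 0.86 followed the members and did not pass. Per length, *Gpd1* had a mean level of 482 RPKM, against 12.1 RPKM for *Acta1*. The list's sum, of which *Gpd1* is the largest part, did not share the members' 4 highest libraries: it was highest in fl/fl 3 at 2625 CPM, fl/fl 1 at 2535, fl/fl 2 at 2116 and fl/fl 6 at 2051 CPM, and fl/fl 5 was at 1177 CPM. Markers of fat cells moved in the same direction as these genes. All 7 adipocyte genes were lower in iADKO, and so were 2 of 6 genes of brown and beige adipocytes, *Ucp1*, the uncoupling protein (-2.92, adjusted p = 0.00983), and *Dio2*, a deiodinase (-0.92, 0.0318), with a list sum of 27.2 to 111.8 CPM in fl/fl and 13.9 to 47.5 CPM in iADKO. *Cox8b* and *Cox7a1* were highest in fl/fl 6 and fl/fl 7, as was *Ucp1*, and the part of these cells in the result was not tested. Of 5 tested slow-muscle genes, *Myl3* was lower (-1.28, adjusted p = 0.0384), with a mean of 0.804 CPM in fl/fl and 0.328 in iADKO and a likeness of 0.69.

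Other cell types had other library patterns. The summed smooth muscle genes, 9 in all, were highest in iADKO 5 at 2700 CPM and iADKO 6 at 2041 CPM, and in fl/fl 5, the library highest in the members, they were at 651 CPM, the lowest of the 13. Their median likeness was -0.08. The cardiac markers *Nppa* and *Nppb* had 0 to 2 reads per library, but other genes of that list had more. The list's sum was 36.5 CPM in iADKO 6 and 30.5 in iADKO 5, against 7.38 to 13.9 CPM elsewhere. *Tnnt2* had 451 reads in iADKO 6 and 334 in iADKO 5, against 1 to 95 elsewhere. Of 4 tested cardiac genes, *Actc1* was higher in iADKO (1.73, edgeR adjusted p = 0.0427), with 131 reads in iADKO 5. *Myl4* was lower (-0.45, edgeR adjusted p = 0.0249), and 30.5% of all genes tested passed. The epithelial genes reached 379 CPM in iADKO 6 and had a median likeness of -0.10. In fl/fl 5 the adipocyte genes, at 16147 CPM, were the lowest of the fl/fl libraries and the macrophage genes, at 5258 CPM, the highest, whereas fl/fl 1, nearly as high in the members, had the highest adipocyte sum of all, 24857 CPM, and 1930 CPM of macrophage genes. Where the muscle RNA in the 4 libraries came from was not tested.

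**Figure D4:**
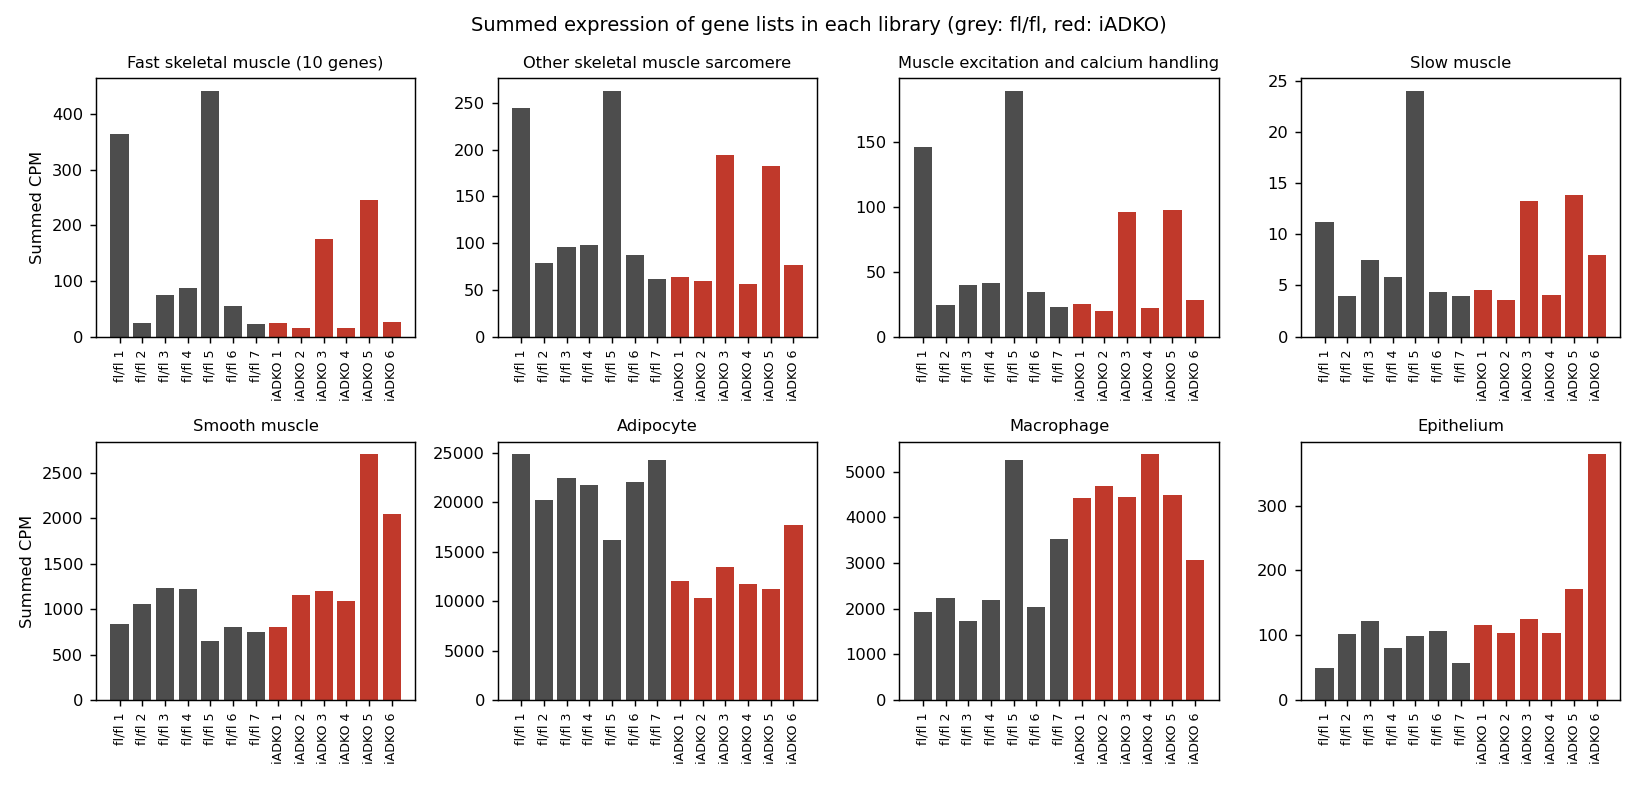
Summed CPM (y axes, linear, from 0) of 8 gene lists in each library, fl/fl in grey and iADKO in red. The first 4 panels, the members and 3 of the 4 other skeletal muscle lists (muscle energy metabolism is not drawn and does not), share their 4 highest libraries, fl/fl 1, fl/fl 5, iADKO 3 and iADKO 5, while smooth muscle peaks in iADKO 5 and 6, epithelium in iADKO 6, and adipocyte and macrophage genes follow the genotype more closely, with fl/fl 5 apart from the other fl/fl libraries.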

How the data were processed

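Strand-specific mRNA libraries from 13 mice were sequenced as paired 100-base reads and aligned with STAR 2.7.11a to mm39 by the authors, who deposited raw counts per gene and log2 values (DESeq2 rlog); the counting tool and annotation are not given in the sources used here. The members and gene lists were chosen with earlier results of these data known. Of 33618 identifiers, 33184 were found in GENCODE vM39. In R 4.3.3, edgeR 4.0.16 (filterByExpr, TMM, robust quasi-likelihood test) compared genotypes, with Benjamini-Hochberg adjustment over all genes tested and a threshold of 0.05. The SE of a log2 fold change was calculated back from the test, as its absolute value over the square root of the F statistic. The confidence intervals were built from that SE. Log2 CPM used a prior count of 2. Coding sequences were aligned with MAFFT 7.526. Named genes were the 10 members, the 12 most alike, *Lmna*, and the 3 most abundant and any called genes of the other lists. Of these list genes, those bearing on the members are given. Outside this rule, *Mb*, *Nppa*, *Nppb*, *Pax7*, *Myog* and *Myf5* were also named. So were genes that overlap members and those under other observations. Alternatives were DESeq2 1.42.0, limma 3.58.1 on the log2 values, other filters, scalings and blocks, and leaving out each library. Counts of any pair of same-genotype libraries differed beyond sampling noise (chi-square 8.90 to 98.7 for each degree of freedom). Replicates were separate mice, and p-values measure the spread between them.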

Additional observations from a re-analysis of the deposited data

Results flagged for a closer look

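*Myh2* in iADKO 3 was flagged as a sample far from the others of its genotype. Its 24.9 CPM exceeded the next iADKO library, iADKO 5 at 9.06 CPM, by a gap that was 0.644 of the whole iADKO range, above Dixon's 95% critical value for 6 samples. The other 19 combinations of member and genotype were not flagged, and chance flags about 1 in 20 groups. With 2 high libraries in each genotype, each lies near the other and the gap rule has little to find.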

How the results depend on the processing

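The count of 0 members called held under DESeq2's size factors, DESeq2's Wald test with and without its Cook's filter, TMM without the muscle genes, a fit that was not robust, no filter on low counts, at least 10 reads in every library (3 members tested), limma on the log2 values, and in each fit without 1 library. With the animal-number series as a block, 7 members, 14 genes of the 4 other muscle lists (7 without it) and 1986 genes in all were called, with log2 fold changes of -2.67 for *Acta1*, -3.57 for *Myh1*, -9.61 for *Myh4*, -3.53 for *Tnnt3*, -3.33 for *Mylpf*, -2.25 for *Actn3* and -5.94 for *Pvalb*; by construction the runs of 1 genotype do not enter that difference. Without the 4 libraries highest in the members, a choice made after seeing the data, 3 members were called, at -6.29 for *Myh4*, -1.26 for *Tnnt3* and -0.71 for *Actn3*, and 3792 genes in all, 3446 of them also called with all libraries in the same direction. Leaving out 1 library gave 3998 genes called without fl/fl 1 to 6604 without fl/fl 5. In these fits the log2 fold change ranged from -1.49 to 0.62 for *Myh2*, from -1.67 to 0.079 for *Ckm* and from -1.07 to 0.16 for *Tnni2*. The direction turned for *Myh2* without fl/fl 1 (0.62), fl/fl 5 (0.054) or iADKO 2 (0.0048), and without fl/fl 5 for *Ckm* and *Tnni2*, all at adjusted p of 0.694 or more. The replicate number as a block, without fl/fl 7, gave 4833 genes called, 0 members and a member median of -1.16. Same-numbered mice deviated together in 3 of 6 pairs (correlation over 0.1), against 6 of 36 other pairs. The mean correlation was 0.11 and -0.02. The labels do not say that equal numbers are pairs, and the main fit did not pair the mice. On log2 CPM 0 libraries stood apart by the gap rule, against 1 on CPM. Members at 0 to 3 reads in a library, *Myh4* and *Pvalb* above all, have log2 CPM values that rest on the prior count. Their fold changes, which come from the fit to the counts, are imprecise. The order of members per length depends on the transcript length used: *Tnnt3* was at 2.35 RPKM with merged exons and 6.04 with the reference transcript, *Myh4* at 3.24 and 3.61.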

Other observations

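Besides the muscle lists, 4 of the 17 genes with a likeness of 0.9 or above stood on no list: *Mylk2*, *Eef1a2*, a translation elongation factor of muscle and neurons (0.92), *Mylk4* (0.92) and *Cmya5* (0.91). *Eef1a2* had a log2 fold change of -0.37 between genotypes (edgeR, adjusted p = 0.637) and *Mylk4* -1.01 (adjusted p = 0.533). They were named after their values were seen.

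Noncoding genes on the opposite strand of the members had few reads. *A930016O22Rik*, which shares 2564 exon bases with *Ckm*, had 1 to 18 reads per library, with 17 in fl/fl 1, 18 in fl/fl 5, 6 in iADKO 3 and 10 in iADKO 5. *Myhas*, which overlaps *Myh1* and *Myh4*, had 0 to 13 reads. *Myf6*, a myogenic factor of mature fibers, had 12, 19, 7 and 8 reads in fl/fl 1, fl/fl 5, iADKO 3 and iADKO 5 and 0 to 2 in the other libraries, too few to be tested.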
